A study of Drosophila melanogaster with 2 samples.

Results

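Isolated Trl peaks were called sites of Trl binding with no other peak of the list nearby. A stretch without a listed peak is not shown to lack Trl binding. They were chosen by position and width, as peaks under 2500 bp wide whose centre lay more than 20 kb from every other peak centre on the same chromosome arm. The rule was applied to 5188 peaks, on the arms of chromosomes 2 and 3 (2L, 2R, 3L and 3R), the X and chromosome 4, of which 670 met it, which is 12.9% (95% Wilson interval 12.0 to 13.9%). The whole list held 5195 peaks, and the 7 on other sequences were outside the rule.

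The peaks came from chromatin immunoprecipitation with sequencing (ChIP-seq) of Trl in Drosophila melanogaster embryos of 16 to 24 h, with sonicated chromatin input as the control. There were 2 samples, 1 of immunoprecipitated chromatin, under a title that gives both replicate numbers 1 and 2, and 1 of input. The antibody was named KW3-Trl-D2, and per the labels' protocols embryos were laid by iso1 (y; bw cn sp) flies or by transgenic flies, without stating which applied here. Embryos were taken whole, so the peaks pool all tissues of this stage, and binding in a few cells cannot be told apart from weak binding in many.

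Trl (Trithorax-like) encodes the GAGA factor, which binds GA-rich DNA through a single zinc finger and forms multimers through its BTB/POZ domain. Bound GAGA factor is known for keeping nucleosomes off promoters and enhancers, for a place at promoters with paused RNA polymerase, and for a place at Polycomb response elements and chromatin boundaries. The list gives each peak a position on build BDGP5 and a score. No gene and no DNA sequence of a peak was used here, so peaks are given by position, counted from 1.

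The 2 limits of the rule accounted for the other peaks as follows. The distance limit left out 3978 peaks that were narrow enough, and the width limit left out 55 peaks that lay far enough from others. A further 485 peaks met neither limit. Position, width and score all come from the same comparison of immunoprecipitated chromatin with input, and position and width chose the isolated peaks, so the values below are descriptions without a test. There was 1 list and no replicate, so no value has a replicate check. The intervals given cover counting error only, and the number of reads behind them is unknown.

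At the distance limit, the last peaks inside were a pair of neighbours on 3R, 20040 bp apart, at 24795834 to 24796747 with a score of 328.15 and at 24815515 to 24817146 with a score of 1182.31. The next inside was on 3L at 18532534 to 18533539, 20070 bp from its neighbour, with a score of 1051.29. The first peaks outside lay 19977 bp from their neighbour on 2R at 3454058 to 3455598 (score 192.91), 19964.5 bp on 2R at 19282466 to 19284013 (score 294.65) and 19949 bp on 3R at 17544842 to 17546762 (score 3100). At the width limit, the widest peaks inside measured 2474 bp on 3L at 5269464 to 5271937 (score 3100), 2472 bp on 3R at 12326462 to 12328933 (score 987.40) and 2469 bp on 3L at 20340935 to 20343403 (score 3100). The narrowest of the 55 left out measured 2505 bp on 3R at 21413168 to 21415672 (score 826.63), 2507 bp on 2L at 13877471 to 13879977 (score 2175.12) and 2509 bp on 2L at 739798 to 742306 (score 507.08). At the distance limit both sides held scores below the list median of 593 and scores above it, while all 3 peaks just inside the width limit scored above it.

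Isolated peaks were few in number and small in length, yet they stood in a large part of the genome. They covered 0.832 Mb, or 10.6% of the 7.87 Mb covered by all peaks of the 6 arms. When each stretch between neighbouring peaks was given to the nearer centre, 37.9 Mb was nearer to an isolated peak than to any other, which is 31.7% of the 119.4 Mb that the peaks of the 6 arms spanned. This follows in part from the rule, which picks peaks with long stretches around them. Isolated peaks were also spread over all arms. Each of the 123 bins of 1 Mb that held a peak also held at least 1 isolated peak, with a median of 5 and at most 11 in a bin. The bins with 11 were on 2L from 7000001 to 8000000, among 41 peaks, and on 3L from 5000001 to 6000000, among 49 peaks.

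The median distance from an isolated peak to its nearest other centre was 29.99 kb, with quartiles of 24.1 and 41.5 kb, against 5.78 kb over all peaks of the arms. A distance over 50 kb was found for 122 isolated peaks and one over 100 kb for 19. On the farther side the stretch was longer, with a median of 59.6 kb among the 662 isolated peaks that had a neighbour on both sides. The farther side was over 3 times the nearer in 107 of them and under 1.5 times in 291. The longer stretch lay on the right, towards higher coordinates, in 346 of the 662 and on the left in the rest. The other 8 isolated peaks were the first or last of their arm and were measured on 1 side only.

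**Figure D1:**
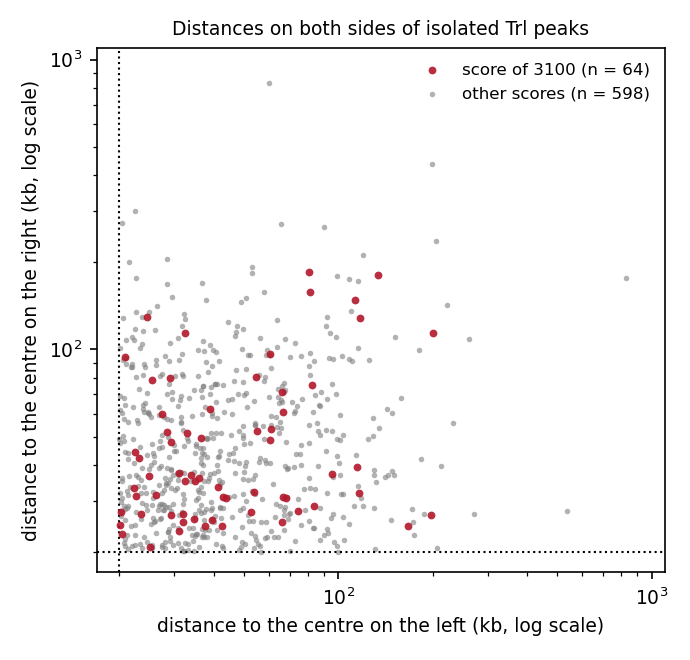
Distance from each isolated Trl peak to the next centre on its left (horizontal axis, kb, log scale) and on its right (vertical axis, kb, log scale), for the 662 isolated peaks with a neighbour on both sides. Red points are the 64 peaks with the tied score of 3100, grey points the other 598, dotted lines the 20 kb limit; the red points lie among the grey ones and include 4 with over 100 kb on both sides.

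Of the 20 most isolated peaks, 7 lay next to the centromeres and scored below the list median, while the others ran from low scores to the tied score of 3100. The farthest from any other was the first peak of 2R, at 73500 to 74409, a peak of 910 bp with a score of 255.25 that lay 939 kb from the next centre. At the centromeric end of 2L, the last peak of the arm, at 22886050 to 22886786, had a score of 89.20 and lay 237 kb from the peak at 22648371 to 22649633 (score 496.88), itself 204 kb from its other neighbour. On X the peak at 21446570 to 21447251, 682 bp wide with a score of 53.01, had 199 kb on its left and 436 kb on its right. On 3L the last peaks of the arm, at 24027301 to 24028037 (score 70.50) and at 24203119 to 24203872 (score 56.62), lay 176 kb from each other, and the first of them 828 kb from the peak on its left. The seventh in order, on X at 22114099 to 22114977, had a score of 276.91 and 143 kb to its nearest neighbour. All of these lay in the 2 Mb next to the centromere of their arm, and all scored below the median of the list, 593. The highest of these scores, 496.88, was above the median of isolated peaks, 451.

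Away from the centromeres, 4 of the 20 most isolated peaks carried the tied score of 3100. They lay on 2R at 15712674 to 15714804, 2131 bp wide with 134 kb on the left and 181 kb on the right, on 3R at 11490029 to 11492390, 2362 bp wide with 117 and 129 kb, on 3L at 13106335 to 13107957, 1623 bp wide with 200 and 114 kb, and on X at 12096565 to 12098351, 1787 bp wide with 113 and 148 kb. The next most isolated peak with this score was on X at 3842845 to 3844670, with 81.1 kb on the left and 158 kb on the right. All 5 thus carried the tied score with at least 81.1 kb to the next centre on either side.

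The rest of the 20 had low or middle scores. On 3L the peak at 9967188 to 9968180 scored 409.19, with 120 kb to its nearest neighbour. Peaks on 3R, at 2418711 to 2419709, at 4349072 to 4350048 and at 13090378 to 13091443, scored 536.35, 154.52 and 386.81 at distances of 115, 110 and 101 kb. The peak on 2L at 14797143 to 14798314 scored 1333.60 at 108 kb, the peak on X at 14377154 to 14377953 scored 100.58 at 108 kb, and the peak on 2R at 15894288 to 15895416 scored 1004.75 at 99.3 kb. On arm 4, the small and largely heterochromatic autosome, the last peaks at 1161356 to 1162077 and at 1272219 to 1272839 lay 111 kb apart and scored 69.48 and 58.72. In all, 8 of the 20 scored under 165, the lower quartile of the list, and the 20 had a median width of 985 bp.

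Isolated peaks scored like other peaks of their width class. Their median score was 451 (95% exact binomial interval of the median 354 to 552, n = 670), against 449 (414 to 486, n = 3978) for the other peaks under 2500 bp. The lower and upper quartiles were 145 and 1486 for isolated peaks, against 146 and 1493 for the others. The tied score of 3100 was given to 64 isolated peaks, or 9.55% (Wilson interval 7.55 to 12.0%), against 401 of the others, or 10.1% (9.18 to 11.1%). Scores under the lower quartile of the list were held by 28.2% of isolated peaks (24.9 to 31.7%), against 27.8% of the others (26.5 to 29.2%). The intervals of the median and of these shares overlapped almost fully. The score is the authors' own value per peak and its scale is not stated, so it measures no amount of bound protein. It was used as listed, and whether the listed values rank the peaks at and above 3100 is not known.

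**Figure D2:**
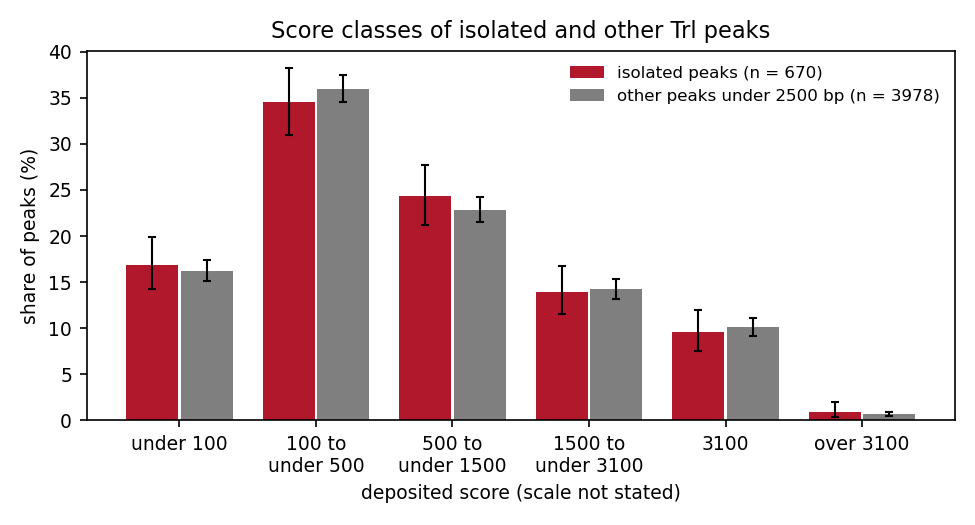
Share of peaks (vertical axis, %) in each class of the deposited score (horizontal axis), for the 670 isolated peaks (red) and the 3978 other peaks under 2500 bp (grey). Bars are shares and lines are 95% Wilson intervals, which overlap in each of the 6 classes, from 16.9% against 16.2% below a score of 100 to 9.55% against 10.1% at 3100.

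No order of the score with distance was seen among the isolated peaks. The median score was 538 (366 to 726) for the 335 isolated peaks at 20 to 30 kb from their nearest neighbour, 388 (295 to 556) for the 213 at 30 to 50 kb and 511 (303 to 804) for the 103 at 50 to 100 kb. The 19 peaks over 100 kb away had a median of 277 (70.5 to 1334), an interval that spans those of the nearer classes. Over the 670 peaks, Spearman's rho between distance and score was -0.02, given without a p-value because peaks of 1 list are not independent. Among the other peaks under 2500 bp, the median was 356 (305 to 429) for those within 2 kb of another centre and 550 (487 to 629) for those at 2 to 5 kb. It was 432 (372 to 508) at 5 to 10 kb and 402 (336 to 459) at 10 to 20 kb. The narrow peaks in chains of 5 or more, in which neighbouring centres lie at most 10 kb apart, had a median score of 602 (497 to 679, n = 746), above that of the isolated peaks, with intervals that overlapped.

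**Figure D3:**
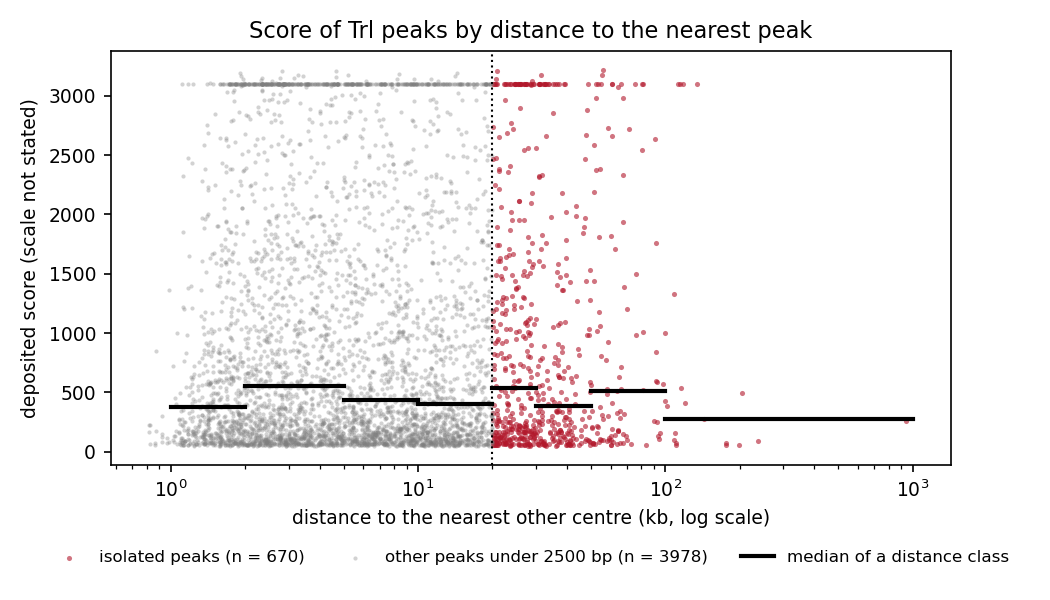
Deposited score (vertical axis, scale not stated) against the distance to the nearest other peak centre (horizontal axis, kb, log scale) for all peaks under 2500 bp on the 6 arms, isolated peaks in red and others in grey. Black bars are medians of distance classes starting at 1 kb, the dotted line is the 20 kb limit; the isolated classes run from 277 to 538 and the row of points at 3100 reaches past 100 kb.

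In width, isolated peaks were slightly narrower than the others under the same limit. The median width was 1121.5 bp (1095 to 1165), against 1183 bp (1166 to 1200) for the other peaks under 2500 bp, a difference of -61.5 bp. Narrow peaks in chains of 5 or more had a median of 1246 bp (1210 to 1293). The widths of isolated peaks ran from 535 to 2474 bp with quartiles of 927 and 1474 bp. Wide peaks were a smaller share of peaks far from others than of peaks near others. Of the 725 peaks of any width with no other centre within 20 kb, 55 were 2500 bp or wider, or 7.59% (Wilson interval 5.87 to 9.74%), against 485 of the 4463 peaks with a closer neighbour, or 10.9% (9.99 to 11.8%). Those 55 wide peaks scored high, with 45 of them at 3100. The scores of the wide peaks near others were not summarised, so this is not shown to be particular to far ones. From 2000 to under 2500 bp, 3100 was held by 48.0% of isolated peaks and 46.7% of the others.

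The widest isolated peaks after those at the width limit were 2450 bp on 2L at 14408806 to 14411255 (score 3100) and 2415 bp on 3L at 20532778 to 20535192 (score 2965.70). At 987.40, the 2472 bp peak on 3R had a much lower score than the other 4 of the 5 widest. The narrowest isolated peak measured 535 bp, on 3L at 23139253 to 23139787, with a score of 54.00. It was followed by the last peak of arm 4 at 621 bp and by peaks on X at 5008660 to 5009299 (640 bp, score 68.97), on X at 9272160 to 9272814 (655 bp, score 83.77) and on 3R at 3676389 to 3677048 (660 bp, score 109.38). All 5 of the narrowest scored under the lower quartile of the list.

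Width and score rose together among isolated peaks, with Spearman's rho of 0.80 over 670 peaks, against 0.76 over the 3978 others. At equal width the median scores were close in most classes and, in proportion, farthest apart from 1000 to under 1500 bp. Among peaks under 1000 bp the median score was 125 (109 to 151) for 239 isolated peaks, against 111 (105 to 118) for 1190 others. From 1000 to under 1500 bp it was 712 (585 to 805) for 271 isolated peaks, against 569 (528 to 608) for 1674 others. From 1500 to under 2000 bp the medians were 1800 (1442 to 2565) over 110 isolated peaks, against 1699 (1577 to 1852) over 752 others, and from 2000 to under 2500 bp 3033 over 50 isolated peaks, against 3032 over 362 others. Isolated peaks had the higher median in each class, and the intervals overlapped in each.

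The highest scores of isolated peaks other than the tied one were spread over 5 arms, all but arm 4. The highest listed value was 3221.92, on 3L at 6488413 to 6490136, a peak of 1724 bp with 233 kb on its left and 55.8 kb on its right. The second was 3212.31, on 2R at 14175608 to 14177023, 20.9 kb from its nearest neighbour and so just inside the limit. Then came 3177.26 on 2L at 5236657 to 5238444, 3176.74 on X at 580140 to 582116, 3146.32 on X at 8699575 to 8701763 and 3121.43 on 2L at 18184068 to 18185844. The listed values under 3100 were 3097.84 on 2L at 4820037 to 4821737, 3094.80 on 3R at 22054773 to 22056686, 3078.85 on 2L at 15263966 to 15265409 and 2984.61 on 3L at 4691837 to 4693272. A score above 3100 was held by 6 isolated peaks, or 0.896% (0.411 to 1.94%), against 26 of the other peaks under 2500 bp, or 0.654% (0.446 to 0.956%). The order near 3100 is only that of the listed scores, since 64 isolated peaks share this value, with widths from 1250 to 2474 bp. Whether these tied peaks stand below or above those listed over 3100 cannot be told, because the scale is not stated. Of the 55 peaks far from others and 2500 bp or wider, 45 were listed at 3100, 0 above it and the rest below.

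At the other end, the lowest score of the list, 50.04, belonged to an isolated peak, on 3L at 16526643 to 16527327, 685 bp wide and 36.1 kb from its nearest neighbour. The next were 50.59 on 3L at 19679902 to 19680915, 50.82 on 2R at 7677187 to 7678130, 51.35 on 2R at 17304255 to 17304992 and 51.89 on 3L at 5241916 to 5242631. The lowest score of the other peaks under 2500 bp was 50.11. A score under 100 was given to 113 isolated peaks, or 16.9% (14.2 to 19.9%), against 645 of the others, or 16.2% (15.1 to 17.4%).

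Among the 5 long arms, isolated peaks made up the largest share on 2L and the smallest on 2R. On 2L, 141 of 855 peaks were isolated, or 16.5% (14.2 to 19.1%), and on 2R 105 of 1010, or 10.4% (8.66 to 12.4%), intervals that did not overlap. The shares on 3L (137 of 1069, 12.8%), 3R (158 of 1243, 12.7%) and X (124 of 977, 12.7%) lay close to the 12.9% of all arms. Arm 4 held 5 isolated peaks of 34, or 14.7% (6.45 to 30.1%), and its share passed that of 2L under 4 of the 9 other settings tried, up to 1.95 times the share of all arms against 1.14 times for 2L when only peaks with scores from the list median upwards were used. The rule used the spacing of peaks, and arms with fewer peaks per Mb have more room between them, so the order of arms is partly set by their density. Per Mb of the span of its peaks, 2L held 6.16 isolated peaks, 3L 5.67, 3R 5.66, X 5.59, 2R 4.98 and arm 4 4.17. A nearest neighbour beyond 50 kb was found for 32 isolated peaks each on 2L and X, 25 on 3R, 20 on 3L, 11 on 2R and 2 on arm 4.

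**Figure D4:**
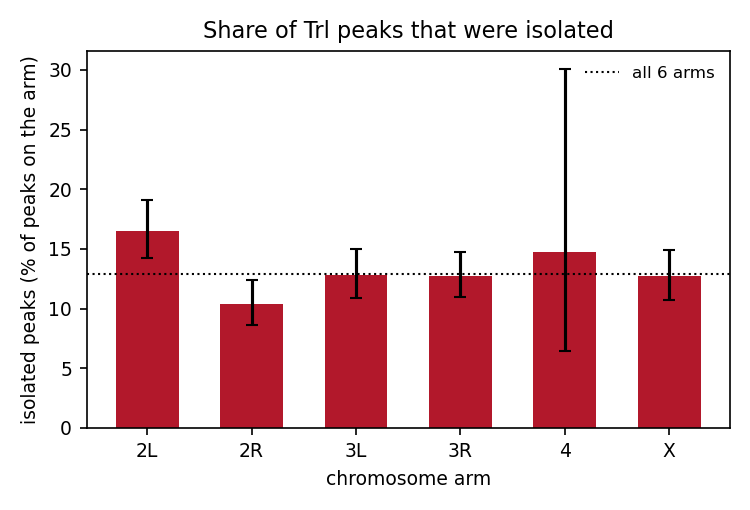
Share of the Trl peaks of each chromosome arm that were isolated (vertical axis, %), with 95% Wilson intervals as lines and the share over all 6 arms, 12.9%, as a dotted line. The bar of 2L (16.5%) stands above and that of 2R (10.4%) below the dotted line with its interval, and the interval of arm 4, with 34 peaks, spans all other arms.

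The X stood out in the width of its isolated peaks. Their median width was 949 bp (906 to 1050, n = 124), against 1100 bp (1065 to 1147, n = 775) for the other peaks of the X under 2500 bp, and the intervals did not overlap. On the other long arms the medians of isolated and other peaks were 1166 against 1206 bp on 2L, 1173 against 1246 bp on 2R, 1187 against 1189 bp on 3L and 1145 against 1189 bp on 3R, all with overlapping intervals. Without the X, isolated peaks had a median width of 1159 bp (1119 to 1210), against 1203 bp (1184 to 1223) for the others, a difference of -44.0 bp. The interval of this difference, -84.0 to 7, included 0 and covers the error of the isolated peaks' median alone. Whether the X differs from the autosomes in this width difference was not tested.

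Scores followed the same order on the X. The median score of its isolated peaks was 267 (188 to 511), against 416 (340 to 508) for the other peaks of the X under 2500 bp. Under the lower quartile of the list were 35.5% of the isolated peaks of the X (27.6 to 44.2%), against 28.8% of its others (25.7 to 32.1%). Yet 15 of the 124 isolated peaks of the X, or 12.1%, had the tied score of 3100, against 9.29% of its others. On the autosomal arms isolated peaks had medians of 552 against 420 on 2L, 603 against 458 on 2R, 438 against 446 on 3R, 469 against 501 on 3L and 156 against 300 on arm 4, where 5 peaks were isolated. The intervals of isolated and other peaks overlapped on each arm.

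**Figure D5:**
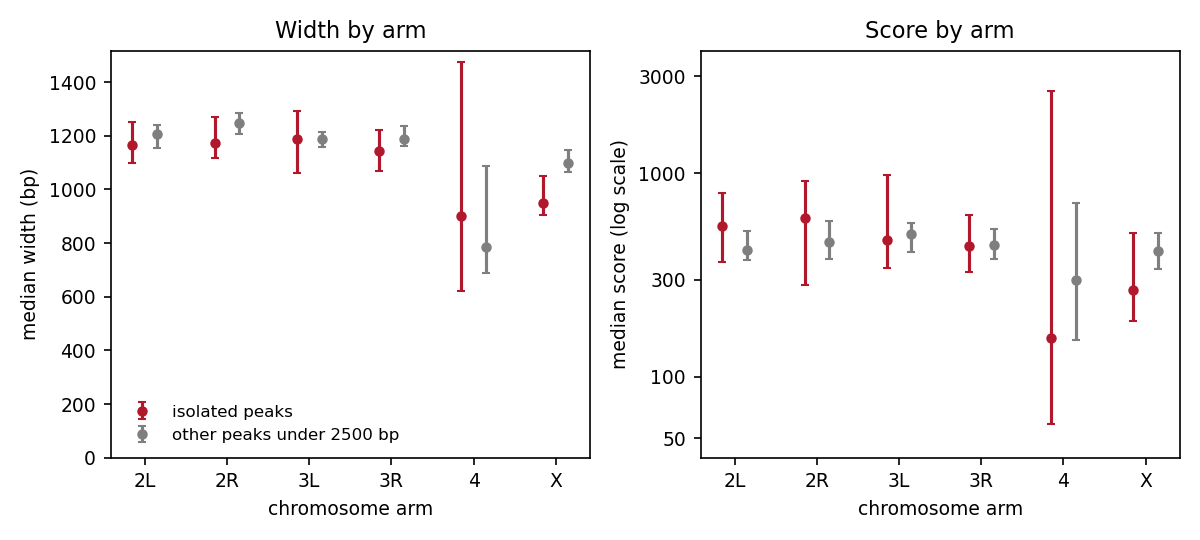
Median width (left, bp) and median deposited score (right, log scale, unit not stated) of isolated peaks (red) and other peaks under 2500 bp (grey) on each chromosome arm, with 95% exact binomial intervals of the median as lines. The widths on the X, 949 against 1100 bp, are the only pair with intervals apart; arm 4 has 5 isolated peaks.

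On arm 4 the 5 isolated peaks ran in order of falling score towards the end of the arm. The first, at 854287 to 855760, had a score of 2543.08 and a width of 1474 bp. The other 4 followed each other with no other peak between them, at 980256 to 981361 (score 302.00), at 1009771 to 1010672 (score 156.04) and in the pair at 1161356 and 1272219 described above. Their widths fell in the same order, 1106, 902, 722 and 621 bp.

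Isolated peaks often had another isolated peak as their next neighbour. Walking along each arm, 261 isolated peaks had a peak of another kind, or the arm's end, on both sides, and 409, or 61.0%, formed 155 runs of 2 or more isolated peaks in a row. There were 88 runs of 2, 43 of 3, 17 of 4, 6 of 5 and 1 of 6. Since a peak far from its neighbour leaves that neighbour far from it on the shared side, runs follow in part from the rule. The isolated peaks in runs had a median score of 497 (368 to 603), against 388 (286 to 569) for those outside runs, and their median width was 1141 against 1116 bp. The 104 peaks in runs of 4 or more lay on the other side of those outside runs, with a median score of 316 (215 to 549) and a median width of 1000.5 bp (948 to 1105). The intervals of score overlapped in both comparisons. The 104 peaks are part of the 409, and runs of each length were not compared, so an order with run length was not tested.

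The longest run lay on 3R from 1907511 to 2141421, 6 peaks over 234 kb. In order along the arm they scored 725.15, 63.12, 624.13, 246.10, 194.81 and 155.46. Of the 6 runs of 5 peaks, the longest in span covered 1213 kb at the centromeric end of 3L, from 22990917 to 24203872, with scores of 168.18, 54.00, 94.38, 70.50 and 56.62. The second in span lay on 3L from 9846392 to 10248072, 5 peaks over 402 kb with scores of 1756.40, 409.19, 1633.66, 121.93 and 549.28. The run at the end of 3L thus held low scores throughout, while the other on 3L held both low and high ones.

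The peaks next to isolated ones held the tied score as often as those next to other peaks, with somewhat lower medians. Their median score was 527, against 574, and their median width 1170 bp, against 1240 bp, both without an interval. The nearest neighbour of an isolated peak had the tied score of 3100 in 16.3% of cases (13.7 to 19.3%), against 16.2% (15.1 to 17.4%) for the other peaks under 2500 bp. It was 2500 bp or wider in 8.51% (6.62 to 10.9%), against 10.2% (9.28 to 11.2%). It scored higher than the isolated peak itself in 344 of 670 cases and lower in 311, with 15 ties. In 38.2% of cases the nearest neighbour was itself isolated, and so under 2500 bp by the rule, against 0% for the other peaks. The lower width of the neighbours and their lower share of wide peaks thus follow in part from the rule. Since width and score rose together, this may also hold for their median score, which was not tested. In 38.1% the neighbour had another centre within 10 kb, against 87.3% for the other peaks. In 3.13% it belonged to a chain of 5 or more peaks, against 20.1% for the other peaks. The rule lowers both shares for isolated peaks. For the other peaks, the peak itself can be that centre or part of that chain, which an isolated peak cannot. The scores of isolated peaks and of their nearest neighbours had Spearman's rho of 0.11 over 670 pairs, against 0.01 over 3978 pairs for the others, without a p-value because neighbours enter more than 1 pair.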

How the data were processed

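Per the labels, chromatin of embryos of 16 to 24 h was fixed with 1.8% formaldehyde for 15 min, sonicated and immunoprecipitated. Reads were aligned with Bowtie to build BDGP5, per the submitters' processing notes, and the authors called peaks with MACS, per the file headers. The sources used here give no version, setting or depth, and do not say how replicates were combined. The deposited list gives a position and a score per peak, of unstated scale.

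Starts were counted from 0 in the file and are printed from 1. Centres, widths and distances between centres were computed over all peaks of the 6 arms before the limits of 20 kb and 2500 bp were applied. The method was tested on 20 simulated lists and placed each peak in its class in 20 of 20. No distance in these lists lay at the 20 kb limit itself. Their only wide peak had no neighbour on its chromosome, so the width limit was not tried. Intervals at 95% are Wilson intervals for shares and exact binomial intervals for medians. For a difference in medians, the interval of the isolated peaks' median was shifted by the other peaks' median, whose own error is left out. For a share relative to all arms, the arm's Wilson interval was divided by the share of all arms. That share was taken as fixed, although it includes the arm itself. No hypothesis test was run. Peaks named in the text were the 20 most isolated, the 10 highest-scoring beside the tied score, the 5 most isolated at the tied score, the 5 lowest-scoring, widest and narrowest, the most distant of each arm, 3 peaks on each side of each limit and the longest 3 runs, with runs of equal number ordered by span. The isolated peaks of arm 4 and the densest bins were added after their values were seen. The rule, these sets and the alternatives were chosen with earlier results of these data known. The software was Python 3.11.15, with scipy 1.17.1, pandas 2.3.3, numpy 2.4.6 and matplotlib 3.10.9.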

Additional observations from a re-analysis of the deposited data

How the results depend on the processing

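The number of isolated peaks, 670, was 1540 with a distance limit of 10 kb and 335 with 30 kb, by construction, and between 510 and 994 under the other alternatives. Most settings used all 5188 peaks. Merging peaks within 1000 bp gave 696 of 4560, and leaving out the X gave 546 of 4211. With only scores from the list median upwards, 716 of 2594 peaks were isolated, a much larger share than 12.9%. This rise also follows by construction, since leaving out lower-scoring peaks removes neighbours. Runs of 2 or more numbered 360 at 10 kb, 236 at 15 kb and 68 at 30 kb, against 155. The median nearest distance of 29.99 kb was 18.4 kb at 10 kb, 24.2 kb at 15 kb, 41.5 kb at 30 kb, 31.7 kb with gaps between facing edges and 36.9 kb when only peaks with scores from the median upwards were used (the higher-scoring peaks). The median width of 1121.5 bp was 1091 bp at 30 kb, 1167 bp without a width limit, 1022 bp with a limit of 1500 bp and 1488 bp among the higher-scoring peaks. The median score of 451 was 556 without a width limit, 257 at 1500 bp and 1694 among the higher-scoring peaks, which is the effect of those limits. The difference in median width from the other peaks (-61.5 bp) was negative under all 9 alternatives, from -31.0 to -89.0 bp, the last at 30 kb. Its interval, which holds the error of the isolated peaks' median only, reached past 0 without the X (-44.0 bp, -84.0 to 7). It ended close to 0 with a width limit of 1500 bp (-58.0 to -3.00) and among the higher-scoring peaks (-83.5 to -2.50). The error of the other peaks' median is left out, so whether 0 is included in other settings cannot be told. The difference in median score (2.05) ran from -51.8 to 44.6 and changed sign with the setting. The share on 2L relative to all arms, 1.28, ran from 1.14 to 1.54, the last at 30 kb, with an interval that reached below 1 among the higher-scoring peaks (0.992 to 1.31). That on 2R, 0.805, ran from 0.644 to 0.867. Arm 4, 1.14, ran from 0.911 to 1.95 and passed 2L at 10 kb, at 15 kb, with a width limit of 1500 bp and among the higher-scoring peaks. Leaving out the X was chosen after seeing the data. No paired analysis was possible because the list holds 1 immunoprecipitated sample and no input, and no replicate could be left out. What depth limits is unknown.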

Other observations

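The centromere lies at the high-coordinate end of 2L, 3L and X and at the low-coordinate end of 2R and 3R. In the 2 Mb of these 5 arms next to it, a region chosen after seeing the low scores there, 41 of 247 peaks were isolated, or 16.6% (95% Wilson interval 12.5 to 21.7%), against 624 of 4907, or 12.7% (11.8 to 13.7%), on the rest of these arms. The isolated peaks there had a median score of 255 (117 to 626), against 490 (374 to 573) elsewhere, and 41.5% of them (27.8 to 56.6%) scored under the lower quartile of the list, against 27.1% (23.7 to 30.7%) elsewhere. The tied score of 3100 was held by 4 of the 41, against 60 of the 624 elsewhere, which are similar shares. The other peaks under 2500 bp near the centromere also scored low, with a median of 305 (238 to 396), against 464 (422 to 500) elsewhere. For isolated peaks the 2 intervals of the median overlapped, and the medians of single arms, each from few peaks, differed in direction. The median score near the centromere against the rest of the arm outside both ends was lower on 2L (362 against 658), 2R (255 against 585) and 3L (132 against 542) and higher on 3R (624 against 410) and X (277 against 262). Near the centromere these medians rest on 10 isolated peaks on 2L, 3 on 2R, 10 on 3L, 11 on 3R and 7 on X. They have no intervals, so a direction for a single arm is not established. Mappability and repeats in these regions were not tested.

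The share of isolated peaks at this end also varied. On 3L, 10 of the 33 peaks in the last 2 Mb were isolated, or 30.3% (17.4 to 47.3%). On 2R, 3 of 28 were isolated in the first 2 Mb, and on 3R 11 of 91. At the opposite end of 3R, the last 2 Mb held 13 isolated peaks of 89 with a median score of 1308.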
